A study of Mus musculus with 6 samples.

Results

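The genes examined were the 8 condensin subunits and 2 further chromosome-compaction genes of the mouse: Smc2, Smc4, Ncapd2, Ncapg, Ncaph, Ncapd3, Ncapg2, Ncaph2, Top2a and Mki67. They were taken by symbol from the 24255 genes of the deposited expression table, and all 10 were found. Of these, 6 had a value of 1 FPKM or more in some library and were among the 6398 genes tested. FPKM is the number of fragments of a transcript, divided by its length and by the number of fragments mapped in that library.

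Condensins are ring-shaped ATPases that extrude and fold chromatin loops into rod-shaped chromosomes when a cell divides. SMC2 and SMC4 form the core of both complexes, and condensin I adds NCAPD2, NCAPG and NCAPH, whereas condensin II adds NCAPD3, NCAPG2 and NCAPH2. Topoisomerase II alpha (Top2a) untangles DNA along the chromosome axis, and Ki-67 (Mki67) coats the chromosome surface and keeps chromosomes apart. In oocytes condensins shape the bivalents during the meiotic divisions. At the germinal vesicle (GV) stage the grown oocyte is still arrested in prophase of the first meiosis, makes little new RNA and holds a store of maternal mRNA.

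RNA-Seq was used to compare GV-stage oocytes that had finished growth (FGOs) between wild type (WT) mice and mice homozygous for Lsm14b tm1a, an insertion of a reporter cassette that disrupts Lsm14b (Lsm14b-KO). LSM14B is an RNA-binding protein of cytoplasmic mRNA granules. Both genotypes were kept on C57BL/6J, the insertion is carried by every cell of the animal and not by the oocyte alone, and the ages of the females are not given in the sources used here. All females received 5 IU of PMSG, a gonadotropin that drives follicle growth, 46 h before collection, and each of the 6 libraries (3 per genotype) held 20 oocytes amplified by Smart-seq2.

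The libraries were checked first. Lsm14b had 1.72 to 3.98 FPKM in WT libraries and, after Lsm14b-KO, was listed at 0 in replicates 1 and 2 and at 0.10 FPKM in replicate 3 (log2 fold change, or log2FC, of -1.85, SE 0.25, limma adjusted p = 0.0038). All 13 oocyte markers were at 1 FPKM or more in all 6 libraries. Of 14 cumulus and granulosa cell markers, 6 were at 0 throughout, including Amh and Foxl2, and the list summed to 9.91 to 13.6 FPKM in WT and 6.63 to 11.0 FPKM in Lsm14b-KO libraries. Most of that sum was Cyp19a1 in WT (8.26 to 11.5 FPKM, against 3.00 to 5.76 FPKM in Lsm14b-KO). Fshr and Kitl instead had higher values in all 3 Lsm14b-KO libraries than in any WT library, at means of 1.94 and 0.503 FPKM against 0.852 and 0.223 FPKM. Hsd3b1 was listed at 0 in all 3 WT libraries and at 0.676, 0.464 and 0.826 FPKM in the Lsm14b-KO libraries, and the part of these markers in the members' values was not tested. Markers of theca and red blood cells were at 0, and those of leukocytes summed to at most 0.673 FPKM in WT and 0.728 FPKM in Lsm14b-KO libraries. Read as depth relative to WT replicate 1, the steps between low FPKM values gave 1.03 and 1.14 in the other WT libraries. They gave 1.33 to 2.17 in Lsm14b-KO libraries. FPKM sums ran the other way, from 1141324 to 1244182 in WT and from 564671 to 1029728 in Lsm14b-KO libraries. The Lsm14b-KO libraries differed in how near they were to WT. Across the log2(FPKM + 1) values of tested genes, Lsm14b-KO replicate 1 had a Pearson r of 0.952 to 0.954 with the WT libraries, 0.917 with Lsm14b-KO replicate 2 and 0.960 with replicate 3. Replicate 2 had the lowest r with WT, at 0.867 to 0.890.

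The upstream sequences of 5 members are shown because genes of cell division share short promoter motifs, and the 5 differ in how much transcript the oocytes held. Each line gives the 150 bases before the RefSeq transcription start (GRCm38.p6), 5′ to 3′ on the strand of the gene. Capitals mark CHR elements (TTTGAA or TTCGAA) and CCAAT boxes (CCAAT), searched on both strands, so that TTCAAA and ATTGG are the same motifs read from the other strand. The Smc2 window is chr4:52439071-52439220 (plus strand), the Ncapg window chr5:45669775-45669924 (plus) and the Ncaph2 window chr15:89355569-89355718 (plus). The Top2a window is chr11:99024190-99024339 (minus strand) and the Mki67 window chr7:135716380-135716529 (minus).
Smc2: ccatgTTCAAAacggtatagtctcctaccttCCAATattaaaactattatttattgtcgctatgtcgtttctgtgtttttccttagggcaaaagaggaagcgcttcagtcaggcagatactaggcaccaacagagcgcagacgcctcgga
Ncapg: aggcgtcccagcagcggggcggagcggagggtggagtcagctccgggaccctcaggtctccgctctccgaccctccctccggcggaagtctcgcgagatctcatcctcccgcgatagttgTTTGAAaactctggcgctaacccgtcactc
Ncaph2: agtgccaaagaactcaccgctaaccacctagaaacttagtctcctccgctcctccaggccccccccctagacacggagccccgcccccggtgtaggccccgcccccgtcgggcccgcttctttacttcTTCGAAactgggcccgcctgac
Top2a: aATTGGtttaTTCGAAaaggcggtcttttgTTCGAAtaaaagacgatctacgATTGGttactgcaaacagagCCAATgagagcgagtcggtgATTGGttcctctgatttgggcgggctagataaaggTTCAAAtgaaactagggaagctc
Mki67: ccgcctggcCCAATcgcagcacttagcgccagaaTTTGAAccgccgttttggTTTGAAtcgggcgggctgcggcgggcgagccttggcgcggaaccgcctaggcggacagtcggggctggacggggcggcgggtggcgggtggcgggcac

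All 5 stretches hold at least 1 CHR element, the short element through which cell-cycle genes are kept off outside division. The 150 bases of Ncaph and Ncapd3, not shown, hold none. In the whole RefSeq window, from 250 bases before to 50 after the start, 8 of the 9 members with an entry held a CHR element, the exception being Ncaph. Ncapd3 has 2 windows, so the members have 10 windows, of which 8 held a CHR element, 5 a CCAAT box and 3 an E2F-type site. A CHR element was in 19.2% of the 32851 windows of the table. A CCAAT box was found in 5 of the 9 members and in 37.4% of all windows. An E2F-type site (TTTCCCGC, TTTGGCGC or TTTCGCGC) was found in 3 of the 9, Ncapg, Ncapd2 and Ncapg2, and in 1.84% of all windows. No match of 1 motif overlapped a match of another in these genes, and Smc4 had no entry. Top2a, with 4 CHR elements in its whole window, was below 1 FPKM in every library. Ncapg, with 1, had the highest mean FPKM of the members, but Ncapd2 and Ncaph2, also with 1, had the lowest means (0.010 and 0.134 FPKM over the 6 libraries). No relation between these elements and transcript level is read from the members. A match is a string of letters and not an observed binding site.

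The levels of the members in WT FGOs spanned from several FPKM to a listed 0. On the FPKM scale, which is per transcript length, Ncapg (4.54 ± 1.68, SD, n = 3), Ncapg2 (4.09 ± 0.235, SD, n = 3) and Smc4 (3.00 ± 0.371, SD, n = 3) stood highest. The ranges of Ncapg and Ncapg2 overlapped, and so did those of Ncapg and Smc4, whereas every Ncapg2 value lay above every Smc4 value. Smc2, Ncaph, Mki67, Ncapd3 and Top2a followed at means between 0.384 and 0.708 FPKM, each overlapping its neighbours in that order. Ncaph2 came next at 0 to 0.117 FPKM, and Ncapd2 was listed at 0 in all 3 WT libraries. Among the subunits particular to 1 complex, the highest mean was that of Ncapg in condensin I and that of Ncapg2 in condensin II.

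**Figure D1:**
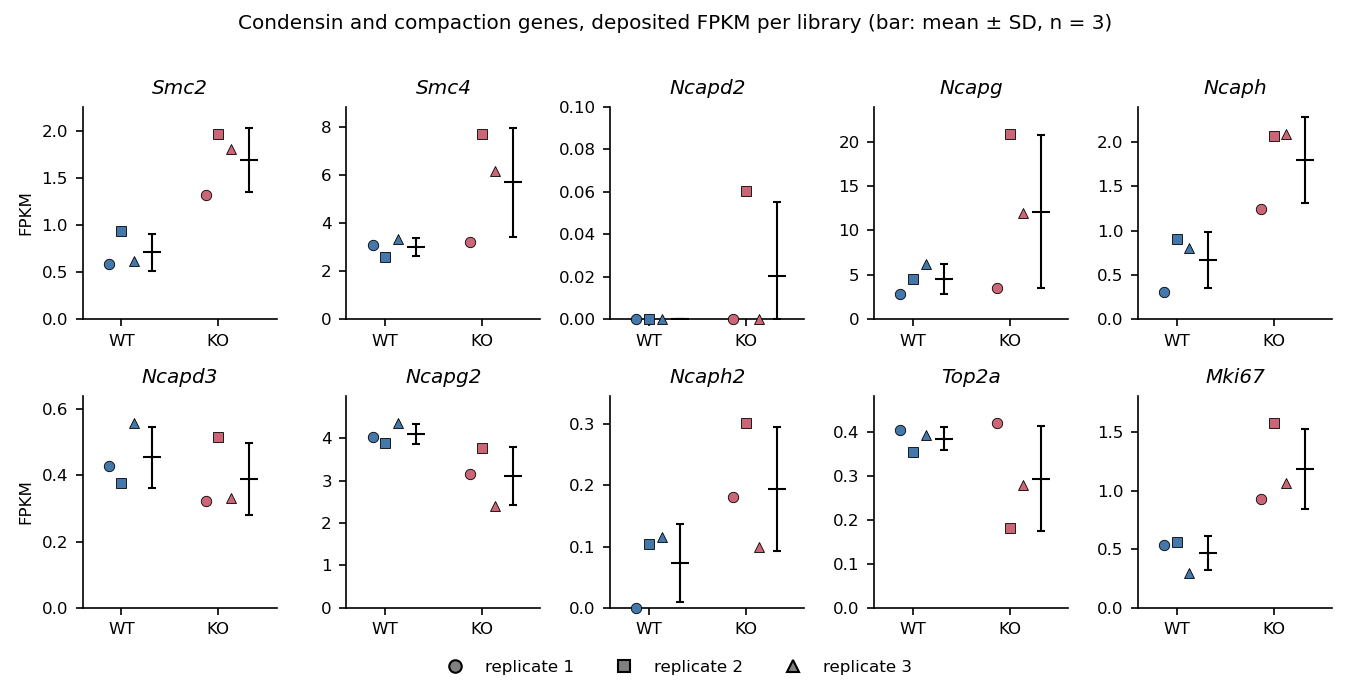
Deposited FPKM (y axes, linear from 0, each gene on its own scale) of the 10 genes in the 3 WT and 3 Lsm14b-KO libraries, 1 symbol per library, with the mean ± SD (n = 3) to the right of each group. Smc2, Ncaph and Mki67 were higher in all 3 Lsm14b-KO libraries than in any WT library, Ncapg2 was lower in all 3, and the others overlapped.

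The core subunits came first. Smc2 (GRCm38, GENCODE vM21, chr4:52439243-52488260, plus strand, a protein-coding gene) measured 0.580, 0.933 and 0.611 FPKM in the WT libraries. In Lsm14b-KO replicates 1, 2 and 3 it had 1.31, 1.96 and 1.81 FPKM. The groups did not overlap, and the ratio of the means was 2.39. The log2FC on the log2(FPKM + 1) scale, which understates the change of low genes, was 0.65 (SE 0.20, 95% interval 0.19 to 1.12, limma adjusted p = 0.0518), just outside the threshold of 0.05. The values rest on about 12 to 22 fragments per WT library and 36 to 80 per Lsm14b-KO library. Each library pools 20 oocytes, so a change in how many oocytes hold a transcript and a change in how much each holds cannot be told apart.

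Smc4 (chr3:69004738-69034623, plus strand), the partner ATPase of Smc2, had 3.09, 2.59 and 3.32 FPKM in the WT libraries. Its values in Lsm14b-KO replicates 1, 2 and 3 were 3.21, 7.68 and 6.17 FPKM. Replicate 1 lay inside the WT range and the other two above it, so the groups overlapped. The difference was not past the threshold (log2FC 0.68, SE 0.29, 95% interval 0.01 to 1.36, limma adjusted p = 0.123). The 2 ATPases bind each other as a pair, but their transcripts did not stand at equal levels: the ratio of Smc4 to Smc2 within a library was 5.32, 2.78 and 5.43 in WT and 2.45, 3.92 and 3.42 in Lsm14b-KO libraries. These ratios overlapped between the genotypes.

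Among the condensin I subunits, Ncapg (chr5:45669919-45700546, plus strand) was the most abundant. It had 2.85, 4.55 and 6.22 FPKM in WT libraries. In Lsm14b-KO replicates 1, 2 and 3 it had 3.52, 20.8 and 12.0 FPKM. Replicate 1 thus lay within the WT range and replicates 2 and 3 above it, on about 64, 553 and 355 fragments. The spread inside the Lsm14b-KO group (12.1 ± 8.66 FPKM, SD, n = 3) was as wide as the difference between the groups, and the log2FC of 1.02 (SE 0.54, 95% interval -0.24 to 2.27) was not past the threshold (limma adjusted p = 0.196). Ncapg overlaps Lcorl, which lies on the other strand, and whether reads were counted by strand is not given in the sources used here. Lcorl itself was at 0.708 FPKM in WT and 0.806 FPKM in Lsm14b-KO libraries on average.

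Ncaph (chr2:127103809-127133954, minus strand), the kleisin that closes the condensin I ring, stood lower than Ncapg. It had 0.310, 0.904 and 0.801 FPKM in WT libraries. In Lsm14b-KO libraries it had 1.24, 2.07 and 2.09 FPKM. The groups did not overlap, with a ratio of means of 2.68. The fit gave a log2FC of 0.75 (SE 0.24, 95% interval 0.20 to 1.29, limma adjusted p = 0.0564). The WT values rest on only 3, 10 and 8 fragments, so that counting error alone puts the first of them anywhere from 0.064 to 0.911 FPKM (exact Poisson 95% interval).

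Ncapd2 (chr6:125168007-125191701, minus strand), the other HEAT-repeat subunit of condensin I, was the exception in the complex. It was listed at 0 in 5 of the 6 libraries and at 0.060 FPKM, about 2 fragments, in Lsm14b-KO replicate 2. A count of 3 fragments would have corresponded to 0.080 to 0.173 FPKM, depending on the library. A listed 0 can also be an estimate that failed, so no absence is read from it.

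Condensin II was represented mainly by Ncapg2. This gene (chr12:116405402-116463731, plus strand), which encodes the counterpart of NCAPG, had 4.03, 3.89 and 4.35 FPKM in WT libraries. In Lsm14b-KO libraries it had 3.16, 3.76 and 2.39 FPKM. All 3 were below all 3 WT values, although Lsm14b-KO replicate 2 was only just so. The difference was small and not past the threshold (log2FC -0.32, SE 0.21, 95% interval -0.80 to 0.16, limma adjusted p = 0.270). Its direction depended on the scaling: with every library scaled to the same FPKM sum (TPM) it was 0.23 (limma adjusted p = 0.579) and the groups overlapped.

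Ncapd3 (chr9:27030175-27095315, plus strand), the other HEAT-repeat subunit of condensin II, had 0.430, 0.377 and 0.557 FPKM in WT and 0.324, 0.515 and 0.331 FPKM in Lsm14b-KO libraries. The groups overlapped, on 9 to 21 fragments per library. Ncaph2 (chr15:89355719-89372826, plus strand), the condensin II kleisin, had 0, 0.105 and 0.117 FPKM in WT and 0.181, 0.302 and 0.10 FPKM in Lsm14b-KO libraries. These stand for at most 7 fragments in any library, and Ncaph2 overlaps Sco2 and Tymp on the other strand. Neither gene reached the minimum for testing.

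Top2a and Mki67 are both used as markers of dividing cells. Top2a (chr11:98992943-99024189, minus strand) had 0.404, 0.355 and 0.393 FPKM in WT and 0.419, 0.182 and 0.280 FPKM in Lsm14b-KO libraries. The groups overlapped, on 7 to 12 fragments per library. Mki67 (chr7:135689784-135716361, minus strand) had 0.538, 0.563 and 0.299 FPKM in WT libraries. Its values in Lsm14b-KO libraries were 0.928, 1.58 and 1.07 FPKM, all above the WT values, with a ratio of means of 2.55. The log2FC was 0.57 (SE 0.21, 95% interval 0.10 to 1.05, limma adjusted p = 0.0817). The ratio of Mki67 to Top2a within a library was 1.33, 1.59 and 0.762 in WT and 2.22, 8.69 and 3.81 in Lsm14b-KO libraries, without overlap. It divides by Top2a values of only 7 to 12 fragments and was not corrected for transcript length. Mki67 had reached 1 FPKM in Lsm14b-KO libraries alone, so nothing is read from this lack of overlap. A pseudogene, Gm44521, matches 216 bases of the Mki67 transcript at 98.6% identity.

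Counted over the 6 members tested, 0 were past the threshold in limma, against 21.6% of all tested genes (6.38% higher and 15.2% lower in Lsm14b-KO). At an unadjusted p under 0.05 there were 4, namely Smc2, Smc4, Ncaph and Mki67, against 39.4% of all tested genes. In 3 of the 6 every Lsm14b-KO value lay above every WT value, against 19.1% of tested genes, and in 1, Ncapg2, every value lay below, against 26%. Those 3 (Smc2, Ncaph and Mki67) had reached 1 FPKM in Lsm14b-KO libraries alone, so the filter itself favoured a higher Lsm14b-KO value and nothing is read from their number. With every gene above 0 in any library fitted, all 10 members entered, 0 were past the threshold (5.03% of 14325 genes) and 3 had an unadjusted p under 0.05, as did 3358 of all those genes. The median log2FC of the 10 was then 0.36, against 0.02 over all those genes. The exact permutation test of the 6 values of a gene gave a two-sided p of 0.10 for Smc2, Ncaph, Ncapg2 and Mki67, which is the smallest that 3 libraries against 3 allow.

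The calls of the members depended on Lsm14b-KO replicate 1. In Smc2, Smc4, Ncapg, Ncaph and Mki67 it had the lowest value of its group. Without it, all 5 were past the threshold in limma: Ncapg with a log2FC of 1.65 (adjusted p = 0.00876), Smc4 with 0.99 (adjusted p = 0.00824), Ncaph with 0.90 (adjusted p = 0.0188), Smc2 with 0.76 (adjusted p = 0.0195) and Mki67 with 0.66 (adjusted p = 0.0398). In the same fit 45.3% of all tested genes were called, and nothing is read from the number of members, since Smc2, Ncaph and Mki67 had passed the filter through Lsm14b-KO libraries alone. Ncapg2 was at -0.34 (adjusted p = 0.232). None of the 6 was past the threshold when any other single library was left out.

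The values also moved with the scaling. With TPM scaling the median log2FC of all tested genes moved up by 0.48, and Smc2 (1.07, adjusted p = 0.0436) and Ncaph (1.16, adjusted p = 0.0464) were past the threshold in limma, as were 20.6% of tested genes. Both had passed the filter through Lsm14b-KO libraries alone, so nothing is read from their number. All 6 tested members have transcripts of 2695 to 10061 nt, and tested genes of at least 2695 nt had a median log2FC of 0.25, against -0.33 for shorter ones. The part of length in the members' values was not tested beyond a correction. After that correction, for length and GC content in each library, Mki67, the longest, had a log2FC of 0.24 (limma adjusted p = 0.344). Smc2 (0.58), Smc4 (0.66), Ncapg (1.07) and Ncaph (0.69) kept values above 0 after it, and none was past the threshold.

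**Figure D2:**
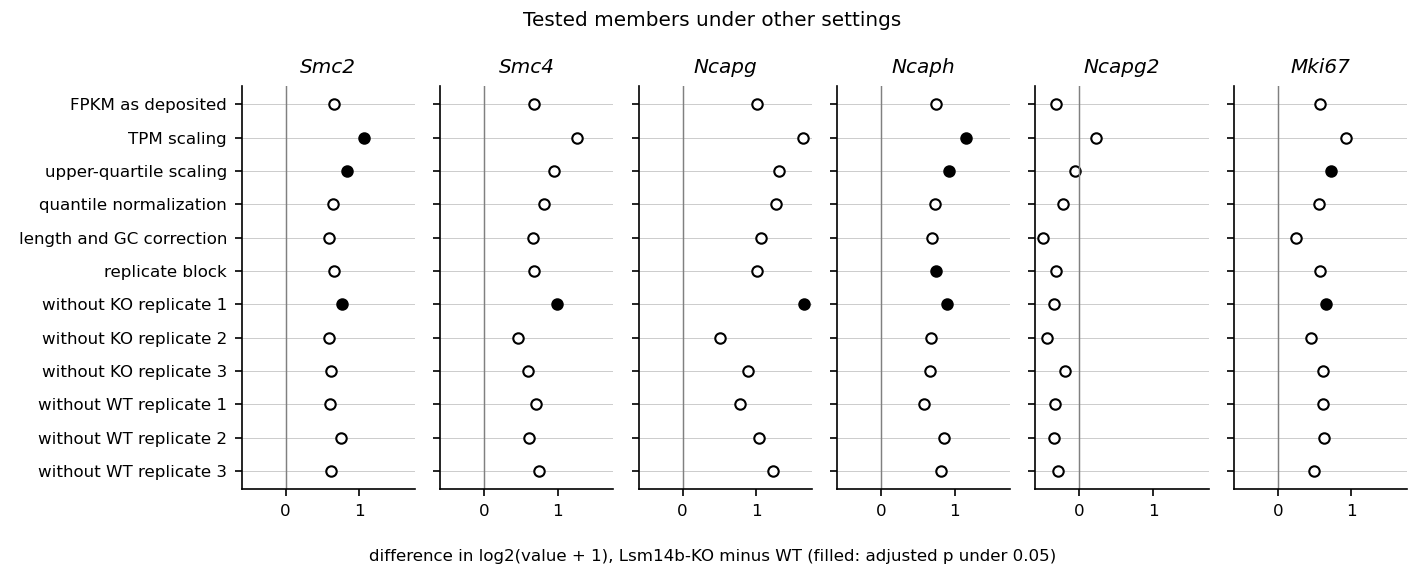
Difference between the genotypes in log2(value + 1), Lsm14b-KO minus WT (x axes), of the 6 tested members under 12 settings (rows), with filled symbols where limma's adjusted p was under 0.05. Smc2, Smc4, Ncapg, Ncaph and Mki67 lay above 0 in every row and were all filled only without Lsm14b-KO replicate 1, and Ncapg2 crossed 0 under TPM scaling.

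Ratios within a library do not depend on how the library was scaled, and they set the condensins against each other. Ncapg over Ncapg2 was 0.707, 1.17 and 1.43 in WT and 1.11, 5.54 and 5.00 in Lsm14b-KO libraries. Replicate 1 again lay inside the WT range. Ncapg2 over the shared core subunit Smc4 was 1.31, 1.5 and 1.31 in WT and 0.984, 0.489 and 0.387 in Lsm14b-KO libraries, so that here all 3 Lsm14b-KO values lay below the WT values. Ncapg over Smc4 overlapped, at 0.924, 1.76 and 1.87 in WT and 1.09, 2.71 and 1.94 in Lsm14b-KO libraries.

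Summed over the 8 condensin genes, FPKM was 11.3, 13.4 and 16.0 in WT and 12.9, 37.2 and 24.8 in Lsm14b-KO libraries. The share of that sum held by the 3 condensin II subunits was 39.5%, 32.7% and 31.4% in WT and 28.3%, 12.3% and 11.4% in Lsm14b-KO libraries, below every WT value in all 3. Summed condensin I subunits over summed condensin II subunits overlapped between the genotypes, however. This ratio was 0.708, 1.25 and 1.40 in WT and 1.30, 5.02 and 4.98 in Lsm14b-KO libraries, with replicate 1 inside the WT range. Ncapg alone held 25.3% to 38.9% of the condensin sum in WT, 27.1% in Lsm14b-KO replicate 1, 56.0% in replicate 2 and 48.1% in replicate 3. These shares were summed from mRNA values and carry no test, since the genes in them were chosen.

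**Figure D3:**
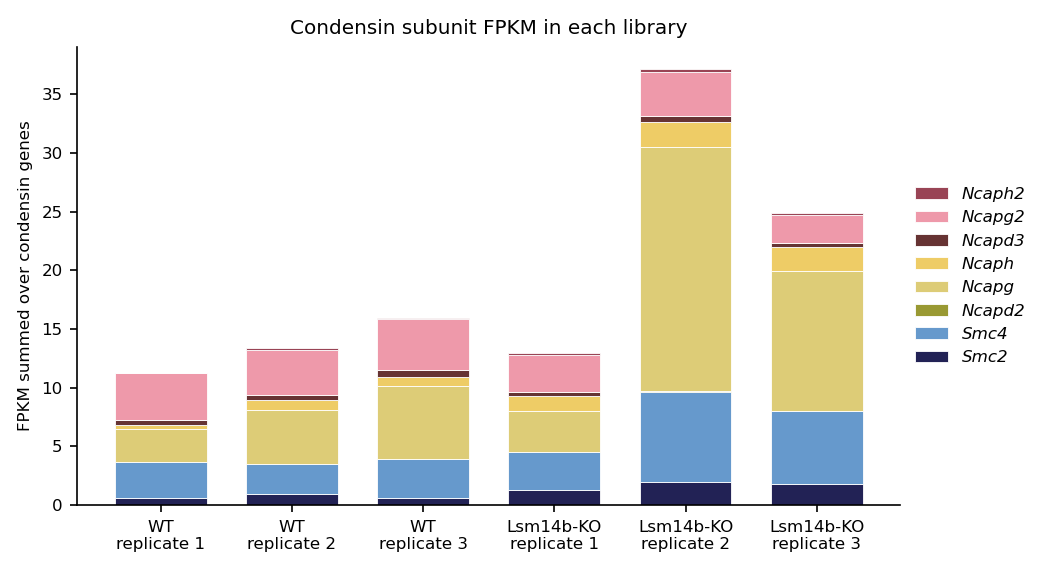
FPKM of the 8 condensin genes stacked in each library (y axis, linear from 0). The WT libraries and Lsm14b-KO replicate 1 reached 11.3 to 16.0 FPKM, and Lsm14b-KO replicates 2 and 3 reached 37.2 and 24.8 FPKM, with Ncapg as the largest part of both.

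Other genes of chromosome compaction were examined as a list of 21, which holds chromokinesins, topoisomerases, chromatin proteins and mitotic kinases. Of its 16 tested genes, 6 were past the threshold (against 21.6% of all tested genes). Of these 1 rose and 5 fell, with a median log2FC over the 16 of -0.10 against -0.08 over all tested genes. Kif4, a chromokinesin that binds condensin I and works beside it, rose from 7.82, 8.20 and 8.70 FPKM in WT to 14.8, 19.7 and 15.6 FPKM in Lsm14b-KO libraries. Its log2FC was 0.93 (SE 0.23, limma adjusted p = 0.0292).

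The 5 that fell were Top1, Top2b, H1foo, Banf1 and Gsg2. Top1, which relaxes supercoiled DNA, fell from 41.7, 37.9 and 38.3 FPKM to 11.9, 14.5 and 17.7 FPKM (log2FC -1.38, limma adjusted p = 0.0120). Top2b, the second topoisomerase II, fell from 1.58, 1.31 and 0.771 FPKM to 0.176, 0.239 and 0.258 FPKM (log2FC -0.84, limma adjusted p = 0.0296). Top2a, below 1 FPKM in every library, did not enter this fit, and Top2b entered it through WT libraries alone. With every gene above 0 in any library fitted, Top2b was not past the threshold either (limma adjusted p = 0.0576). The call of Top2b is therefore not set against Top2a, and the difference between the 2 genes was not tested.

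H1foo, the linker histone of the oocyte, fell from 7575 to 8407 FPKM in WT to 2909 to 4962 FPKM in Lsm14b-KO libraries (log2FC -1.09, limma adjusted p = 0.0310). Banf1, which crosslinks chromatin at the nuclear rim, fell from 2794 to 3252 FPKM to 580 to 1969 FPKM (log2FC -1.51, limma adjusted p = 0.0449). Both have short transcripts. After the length and GC correction, Banf1 (1261 nt) was at -1.22 and not past the threshold (limma adjusted p = 0.0532). H1foo (1122 nt) was then at -0.69 and stayed past it (limma adjusted p = 0.0249). Gsg2, which encodes the histone H3 kinase haspin, fell from 3.37 to 5.99 FPKM to 1.58 to 2.39 FPKM (log2FC -1.01, limma adjusted p = 0.0273). The most abundant genes of the list not past the threshold were Nusap1, a microtubule-binding protein of the spindle, Aurkc, the Aurora kinase of germ cells, and Nifk, which binds Ki-67. Their log2FC values were -0.43, -0.11 and -0.10 (limma adjusted p = 0.384, 0.778 and 0.80), and all 3 turned positive under TPM scaling.

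The other SMC complexes were described in the same way. Of the 9 cohesin genes, whose complex holds sister chromatids together, 4 were tested and 1 was called (against 21.6% of all tested genes), with a median log2FC over the 4 of -0.10 against -0.08 over all. Smc3 fell from 1.09, 1.25 and 1.27 FPKM to 0.370, 0.336 and 0.554 FPKM (log2FC -0.64, limma adjusted p = 0.0449). Rad21, Smc1a and Stag2 had log2FC values of 0.58, 0.36 and -0.56 (limma adjusted p = 0.0998, 0.276 and 0.108). Smc1a had reached 1 FPKM in Lsm14b-KO replicate 3 alone, and Smc3 and Stag2 in WT libraries alone. The filter thus favoured a higher Lsm14b-KO value in Smc1a and a lower one in Smc3 and Stag2. Nothing is read from the opposite signs of the SMC partners Smc1a and Smc3.

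Of the 7 genes of the SMC5-SMC6 complex, which acts on recombination intermediates and replication forks, 4 were tested and 2 were called (against the same 21.6%), with a median log2FC over the 4 of -1.02 against -0.08. Smc6 rose from 2.72, 2.64 and 2.19 FPKM to 7.61, 3.57 and 6.46 FPKM (log2FC 0.92, limma adjusted p = 0.0469). Ndnl2, which encodes the subunit NSMCE3, fell from 11.3, 10.6 and 10.7 FPKM to 3.20, 4.40 and 2.68 FPKM (log2FC -1.44, limma adjusted p = 0.0060). Nsmce2 and Nsmce1, which encode its SUMO and ubiquitin ligases, had log2FC values of -1.68 and -0.60 (limma adjusted p = 0.0731 and 0.149). Of the 9 called genes of the 3 lists, Ndnl2 alone stayed past the threshold whichever of the 6 libraries was left out. Kif4, Banf1, H1foo and Smc3 stayed so only without Lsm14b-KO replicate 1, and Smc6 only without replicate 2. Top2b and Gsg2 stayed so without Lsm14b-KO replicate 1 or WT replicate 3, and Top1 lost its call without any 1 of the WT libraries. Under TPM scaling, Kif4 and Smc6 stayed past it and the 7 that fell kept negative values of -0.85 to -0.35 without passing it. Top2b and Smc3 had reached 1 FPKM in WT libraries alone, so the filter favoured a lower Lsm14b-KO value in them.

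**Figure D4:**
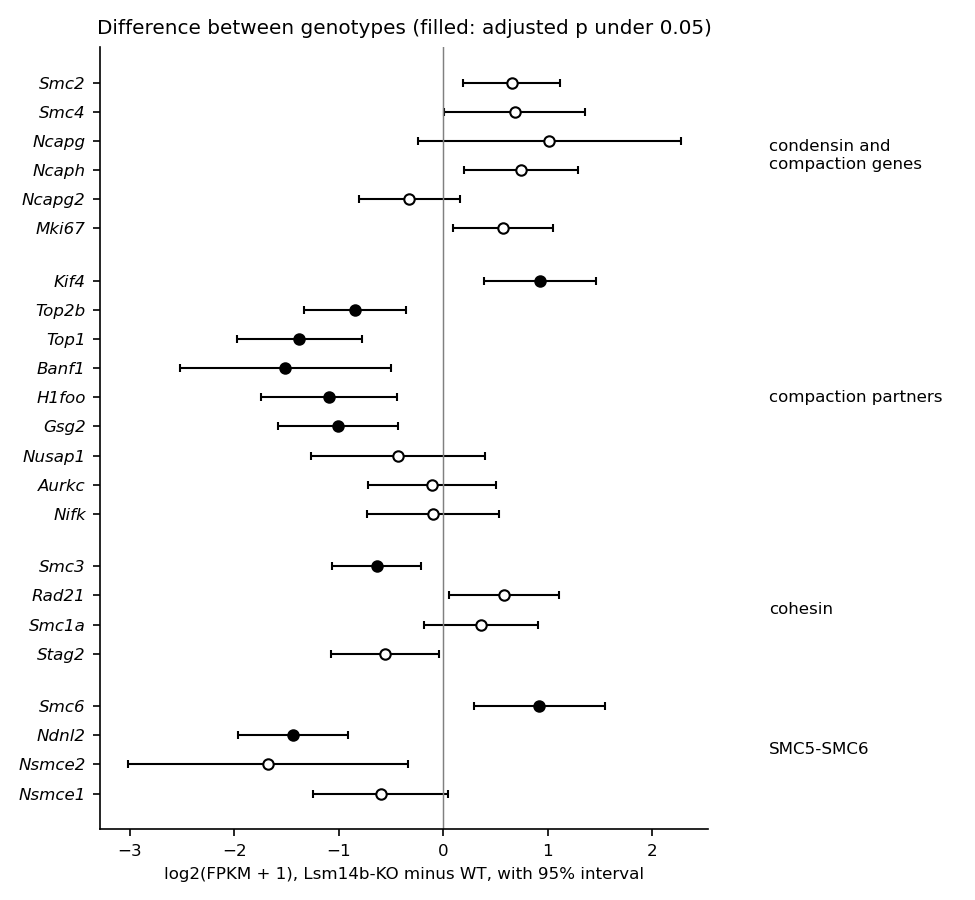
Difference in log2(FPKM + 1) between the genotypes, Lsm14b-KO minus WT (x axis), with its 95% interval from limma, for the 6 tested members and 17 named genes of the 3 related lists, and filled symbols where the adjusted p was under 0.05. No member is filled, and the 9 filled genes are Kif4 and Smc6 above 0 and Top2b, Top1, Banf1, H1foo, Gsg2, Smc3 and Ndnl2 below 0.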

How the data were processed

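Gene expression was measured by RNA-Seq in 3 WT and 3 Lsm14b-KO libraries of 20 FGOs, grouped by the sample titles. The authors trimmed the 150 bp paired reads, aligned them to mm10 with TopHat2 2.0.13 and deposited FPKM values computed with Cufflinks 2.2.1, with 1 column per library. The annotation is not given in the sources used here. Their 3 comparison columns (log2 fold change, p and q) were not used. The members and lists were chosen with earlier results of these data known.

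Genes whose highest value was 1 FPKM or more were fitted as log2(FPKM + 1) with limma 3.58.1 (R 4.3.3, intensity trend, genotype only), and p-values were adjusted by Benjamini-Hochberg over all 6398 genes. The fit was tested on simulated data. Named were all members, Lsm14b, and from each list the genes past the threshold of 0.05 and up to 3 of the most abundant others. Whether libraries came from separate animals is not given in the sources used here, so p-values measure the spread between libraries, which may be technical.

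By its definition FPKM scales with the library total, so abundant transcripts can move all others. Cuffnorm and Cuffdiff are also named among the authors' tools. Whether they rescaled the deposited values was not tested, and the depths given above would carry any such rescaling. Fragments behind a value were estimated from the FPKM of 1 fragment, assuming fragments of 275 nt. Of low values, 63.7% to 65.6% lay within 0.1 of a whole number on this scale, too few for a count model. Intervals from these fragments cover counting error only. Loci and lengths came from GENCODE vM21, the latter for 98.8% of tested genes, and promoter windows from RefSeq (GRCm38.p6). Near-copies were searched with blastn 2.17.0 at 95% identity over at least 200 nt. Alternatives comprised other pseudocounts, filters, scalings and limma settings, a length and GC correction, a replicate block and the omission of each library.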

Additional observations from a re-analysis of the deposited data

How the results depend on the processing

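Lsm14b kept its direction and stayed past the threshold under all 18 alternatives that gave a value. For the 10 members, the count past the threshold (0) became 1 with a pseudocount of 0.1, a mean of at least 1 FPKM, robust eBayes (Smc2 each time) or the replicate block (Ncaph), 2 with TPM scaling, 3 with upper-quartile scaling (Smc2, Ncaph, Mki67) and 6 with estimated library weights, which did not converge. Omitting each library in turn gave 0 to 5. Over all tested genes the count of 1383 became 720 with no minimum level, 4383 with library weights and 315 to 2898 with a library omitted.

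Smc2, at 0.65, passed the threshold at 1.16 with a pseudocount of 0.1, 0.65 with the mean filter and with robust eBayes, 1.07 with TPM, 0.84 with upper-quartile scaling and 0.70 with library weights. Ncaph passed at 1.16 with TPM, 0.93 with upper-quartile scaling and 0.89 with library weights. Mki67 passed at 0.72 with upper-quartile scaling. Library weights also put Smc4 (0.86), Ncapg (1.29), Ncapg2 (-0.57) and Mki67 (0.48) past it. With a library omitted, log2 fold changes ran from 0.58 to 0.76 for Smc2, 0.46 to 0.99 for Smc4, 0.51 to 1.65 for Ncapg, 0.58 to 0.90 for Ncaph, -0.44 to -0.19 for Ncapg2 and 0.45 to 0.66 for Mki67. Ncapg2 reversed under TPM scaling (0.23). The log2 ratio of Ncapg to Ncapg2 (Lsm14b-KO minus WT, 1.57) ran from 1.16 to 2.32 with a library omitted and was 1.84 after the length and GC correction.

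The 6 called compaction partners became 1 with no minimum level or with TPM, 3 with upper-quartile scaling or the replicate block and 0 to 8 with a library omitted. The 1 called cohesin gene became 0 under 6 alternatives (no minimum level, a mean of at least 1 FPKM, at least 5 FPKM, TPM, no intensity trend, the replicate block), 4 with library weights and 0 to 2 with a library omitted. With upper-quartile scaling it stayed 1, but Smc3 lost its call (adjusted p = 0.0901 in limma) and Rad21 was called in its place, higher in Lsm14b-KO (0.85, adjusted p = 0.0413 in limma). The 2 called SMC5-SMC6 genes became 1 under 8 alternatives (a pseudocount of 0.01, no minimum level, at least 5 FPKM, TPM, the length and GC correction, no intensity trend, robust eBayes, the replicate block), 4 with library weights and 1 to 3 with a library omitted. Genes not past the threshold that reversed were Nusap1 with TPM (0.26) and quantile normalization (0.17) and Nsmce1 with TPM (0.020). Aurkc and Nifk reversed with TPM (0.58 and 0.58), quantile normalization (0.47 and 0.40), upper-quartile scaling (0.23 and 0.23), the length and GC correction (0.21 and 0.11) and library weights (0.029 and 0.16), and Nifk ran from -0.22 to 0.0048 with a library omitted. Where no value above shows it, the cause was not tested.

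The sample titles do not say what a replicate number stands for. The correlations of the deviations of same-numbered libraries were 0.19, -0.13 and 0.02 for numbers 1, 2 and 3. Not every library was closest to its own number. Deviations from a mean of 3 libraries constrain each other, so these values cannot show whether the replicates were paired. With the replicate block, 1244 genes were past the threshold, Ncaph among them (0.75, adjusted p = 0.0494 in limma). The share of calls that were higher in Lsm14b-KO was 29.5%, against 63.2% with TPM, 55.5% with upper-quartile scaling, 42.4% with quantile normalization and 41.2% with the length and GC correction. The corresponding shifts of the median log2 fold change were 0.48, 0.22, 0.14 and 0.14. Depth limits Ncapd2, Ncaph2, Top2a and Ncapd3, each with at most 21 fragments in a library.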
